A study of Mus musculus with 18 samples.

Results

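The genes described here are the 4 inhibitor of DNA binding genes Id1, Id2, Id3 and Id4, and 5 genes of bone morphogenetic protein (BMP) signalling that act at the receptor or just inside the cell: Smad6, Smad7, Bmpr2, Acvrl1 and Eng. They were listed by symbol with earlier results of these data known. Their probe sets were chosen by mean level over all 18 arrays, the brightest one standing for a gene with several. Each of these 9 genes had 1 probe set on the array, so that choice by level set nothing aside. They are 9 of 19938 genes named by the array annotation, and all 9 passed the filter on low signal in every fit.

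The study measured RNA of mice back-crossed to C57BL/6 on 18 arrays that cover whole transcripts, with 6 groups of 3. Some hearts came from mice injected into the peritoneum with 50 mg per kg of FG-4497, which inhibits the EglN prolyl hydroxylases, and others from mice given vehicle. Both heart groups were Egln1 wild type. In a separate experiment, soleus and quadriceps came from mice with a floxed Egln1 gene and a tamoxifen-activated Cre recombinase of skeletal muscle (KO), and from mice with the same Cre and unfloxed Egln1 (WT). KO and WT mice alike were given tamoxifen for 3 days before the tissues were taken, so every muscle group carries both the Cre and the drug. The labels give no age and do not name the promoter that drives the Cre. The Cre is described as specific to skeletal muscle, while the arrays read whole tissue with its vessels and other cells. The series title speaks of smooth muscle, whereas the labels of the samples name soleus, quadriceps and heart.

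BMPs are secreted ligands that bind a type II receptor such as BMPR2 together with a type I receptor such as ALK1, the product of Acvrl1, while endoglin (Eng) acts as a co-receptor. The receptors phosphorylate Smad1, Smad5 and Smad9, which enter the nucleus with Smad4 and switch on target genes, among which Id1, Id2 and Id3 are classical ones. Smad6 and Smad7 are inhibitory Smads, themselves targets of the pathway, that block the receptors in a feedback loop, Smad7 also on the TGF-beta side. Id proteins have a helix-loop-helix domain but no DNA-binding region, and hold E proteins and their partners in inactive pairs. In adult heart and muscle, Acvrl1 and Eng are known mainly from endothelial cells.

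The promoters of 3 of the 4 genes that passed the test in FG-4497 hearts are shown, as a view of the sequence in front of the genes on which the results turn. They are the 250 bases upstream of the gene start in RefSeq on GRCm38.p6, written 5′ to 3′ along the strand of the gene. Id2 lies on the minus strand at chr12:25096093-25096342, Id3 on the plus strand at chr4:136143572-136143821 and Smad6 on the minus strand at chr9:64022060-64022309. Capitals mark ACGTG or GCGTG, the core letters of the hypoxia response element bound by hypoxia-inducible factors (HIF), and GGCGCC, a GC-rich element known to bind BMP-activated Smads, each searched on both strands.
Id2: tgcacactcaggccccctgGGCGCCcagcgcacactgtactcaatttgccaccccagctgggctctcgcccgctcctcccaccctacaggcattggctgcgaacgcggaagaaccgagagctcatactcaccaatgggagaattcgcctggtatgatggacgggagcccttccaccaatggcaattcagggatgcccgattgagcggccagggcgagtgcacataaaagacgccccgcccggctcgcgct
Id3: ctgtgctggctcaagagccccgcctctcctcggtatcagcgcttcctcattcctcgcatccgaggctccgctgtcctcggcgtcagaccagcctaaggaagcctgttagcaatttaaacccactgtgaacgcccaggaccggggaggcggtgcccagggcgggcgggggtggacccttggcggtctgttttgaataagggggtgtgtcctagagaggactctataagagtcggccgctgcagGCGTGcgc
Smad6: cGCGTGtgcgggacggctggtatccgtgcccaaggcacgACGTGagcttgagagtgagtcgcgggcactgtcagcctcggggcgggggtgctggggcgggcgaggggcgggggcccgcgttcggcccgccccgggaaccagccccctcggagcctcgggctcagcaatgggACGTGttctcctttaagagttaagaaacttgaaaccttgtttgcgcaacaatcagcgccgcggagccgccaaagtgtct
The Smad6 window held ACGTG at 211 and 79 bases and GCGTG at 249 bases upstream of the start, and no GGCGCC. The Id3 window held GCGTG once, 8 bases upstream. The Id2 window held GGCGCC once, 231 bases upstream, and neither hypoxia core. No capitals overlap another match. Smad7 was left out of the promoter search, and Id1 and Acvrl1 had no window in the source used. RefSeq windows were searched for 6 of the 9 genes. Among the other 3 of these, Id4 and Bmpr2 each held GGCGCC once, at 148 and 105 bases, and Eng held none of the 3 motifs. Over 32851 promoter windows of the same length, ACGTG was found in 16.6%, GCGTG in 28.2% and GGCGCC in 9.59%. These matches are letters in a short window, and binding was not measured.

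Array medians lay between 6.68 and 6.81, and within a group any pair of arrays had an r of 0.986 to 0.995 over probe sets. All values are log2 of the RMA summary of a probe set, so a difference of 1 is a doubling, and levels of different genes are not set against each other because probe sets differ in brightness. Tissue labels matched their markers: the mean level of 6 cardiomyocyte genes was 12.20 to 12.39 in hearts and 6.60 to 7.42 in muscles, and that of 4 slow-fibre genes was highest in soleus. Egln1, the targeted gene, differed by -0.20 (SE 0.07) between KO and WT soleus and by -0.14 (SE 0.07) between KO and WT quadriceps, with adjusted p of 0.395 and 0.432 by limma. In hearts it differed by 0.24 (SE 0.08, adjusted p = 0.187) between FG-4497 and vehicle. In either muscle the KO arrays were all lower than the WT arrays, but a probe set that spans the transcript is a limited check of a deletion whose extent the labels do not give.

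The first question was how the 9 genes differed between hearts of mice given the EglN inhibitor and hearts given vehicle. Id2, Smad7 and Smad6 were higher in FG-4497 hearts and Id3 was lower, so that 2 members of the same family of inhibitors moved in opposite directions. A gene was called at an adjusted p under 0.05 in limma, adjusted over all 11826 genes tested. By this measure 4 of 9 genes were called, 3 higher and 1 lower, against 2.23% of all genes tested, 1.58% called higher and 0.651% called lower. The 2 groups of arrays did not overlap for 5 of the 9 genes, against 16.0% of all genes. Since the genes were chosen with results known, these shares describe the set and are no independent evidence about it.

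Id2, which restrains E proteins, read 10.51, 10.82 and 10.38 in the FG-4497 hearts, against 9.36, 9.21 and 9.30 in the vehicle hearts. Every FG-4497 heart lay more than 1 log2 unit above every vehicle heart. The difference was 1.28 with a standard error (SE) of 0.11, a 2.44-fold higher level (95% interval 1.04 to 1.53 on the log2 scale, limma adjusted p = 9.77e-05). Id3, a close relative of Id2 with the same type of partners, read 7.76, 7.85 and 8.27 in the FG-4497 hearts, against 8.89, 8.58 and 8.87 in the vehicle hearts. All 3 FG-4497 hearts lay below all 3 vehicle hearts, replicate 3 the nearest to them. Id3 was 1.77-fold lower, a difference of -0.82 (SE 0.14, interval -1.12 to -0.52, limma adjusted p = 0.00973). This call was lost without FG-4497 replicate 2, where the difference was -0.76 and the limma adjusted p 0.0543.

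Id1, the most studied BMP target among the 4, read 9.31, 9.51 and 9.63 in the FG-4497 hearts, against 9.88, 9.69 and 9.86 in the vehicle hearts. The groups did not overlap, although FG-4497 replicate 3 came close to vehicle replicate 2. The difference of -0.32 (SE 0.10, interval -0.54 to -0.11) did not pass the test over all genes (limma adjusted p = 0.155). Id4 read 6.67, 6.80 and 6.80 in the FG-4497 hearts, against 6.75, 6.78 and 6.88 in the vehicle hearts. These groups overlapped, the difference was -0.05 (SE 0.08, adjusted p = 0.924), and the levels stood close to the filter level of 6.64, where the array reads little signal.

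Both inhibitory Smads rose. Smad7 read 9.11, 9.41 and 9.27 in the FG-4497 hearts, against 8.30, 7.85 and 8.04 in the vehicle hearts, and the groups lay far apart. Its difference was 1.20 (SE 0.12, 2.3-fold, interval 0.94 to 1.47, limma adjusted p = 0.000289). Smad6, the inhibitor that acts chiefly on the BMP side, read 8.33, 8.25 and 8.40 in the FG-4497 hearts, against 7.86, 7.86 and 7.71 in the vehicle hearts. The Smad6 groups were also apart, with a smaller difference of 0.52 (SE 0.08, 1.43-fold, interval 0.34 to 0.70, limma adjusted p = 0.00749). The 3 receptor genes were not called. Bmpr2 averaged 11.08 in FG-4497 hearts and 10.99 in vehicle hearts, Acvrl1 averaged 8.99 in FG-4497 hearts and 8.88 in vehicle hearts, and Eng averaged 10.75 in FG-4497 hearts and 10.85 in vehicle hearts. Their differences lay between -0.10 and 0.10, with limma adjusted p from 0.776 to 0.823, and their 95% intervals ran from -0.09 to 0.27 for Bmpr2, from -0.08 to 0.28 for Acvrl1 and from -0.31 to 0.10 for Eng. All 3 receptor genes overlapped between the groups. Over the 9 genes the median difference was 0.089, against 0.0 over all genes tested.

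**Figure D1:**
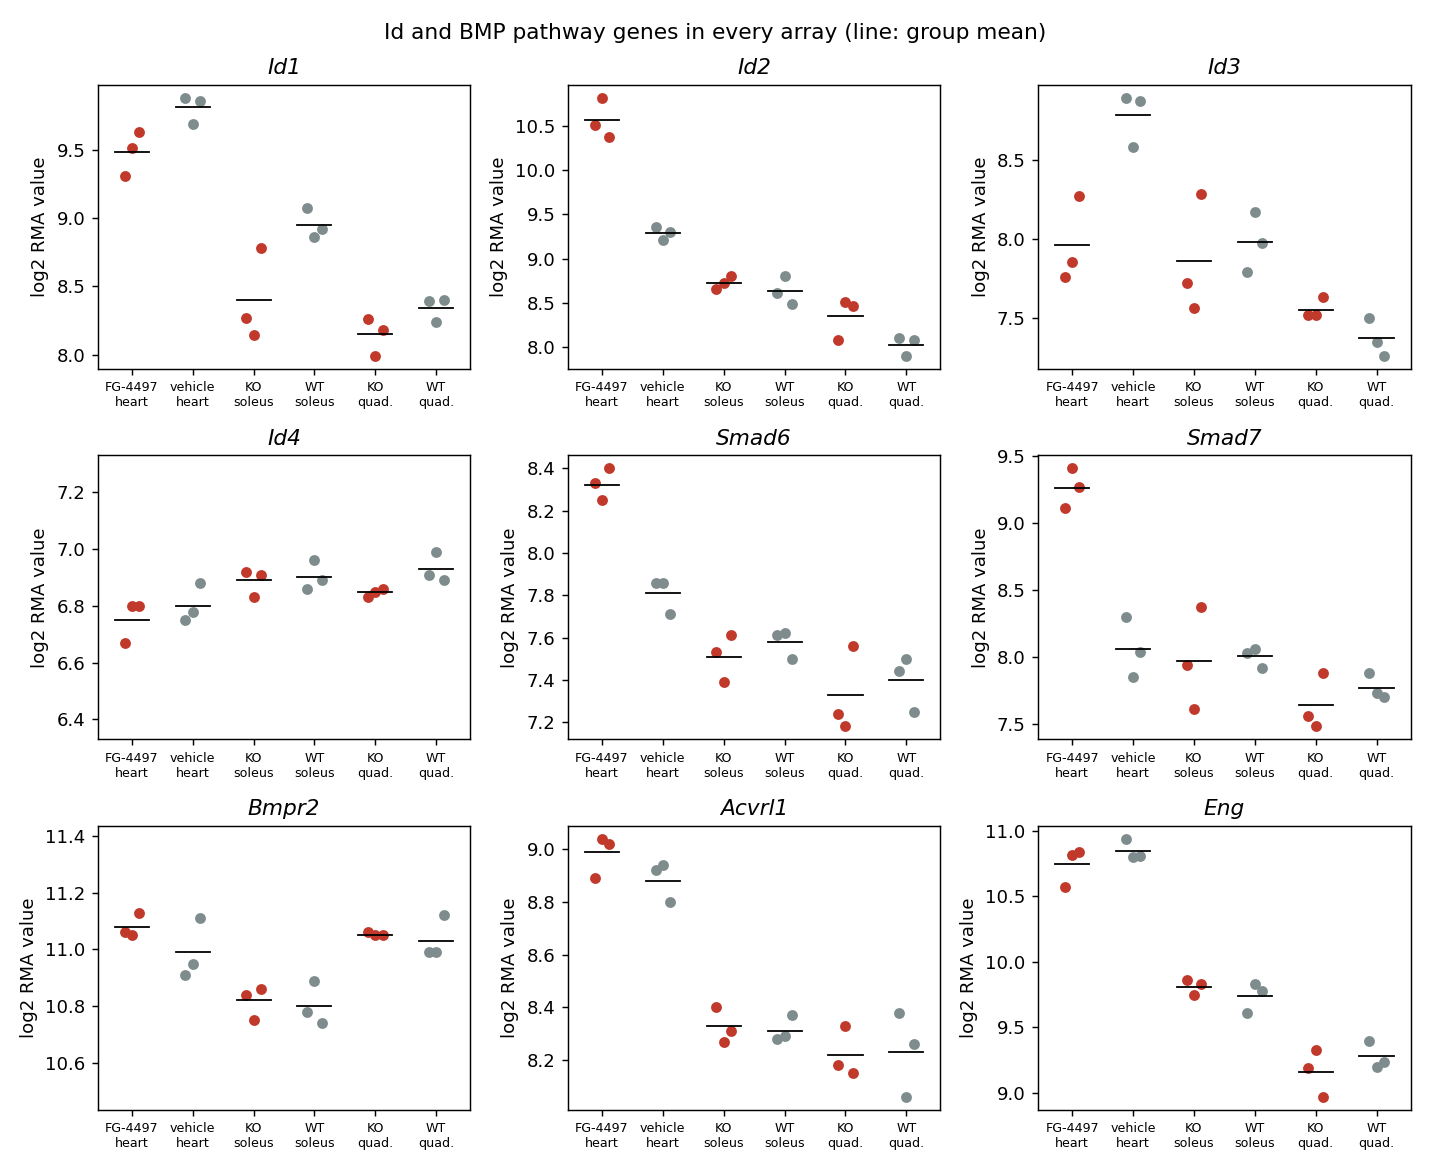
Level of each of the 9 genes in all 18 arrays, as log2 RMA values on an axis of its own for each gene. Red points are FG-4497 hearts and KO muscles, grey points are vehicle hearts and WT muscles, and each line is the mean of 3 arrays. Id2, Smad6 and Smad7 in FG-4497 hearts stand above every other array, while Id3 in FG-4497 hearts overlaps both soleus groups.

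Hearts of mice given FG-4497 also differed in some cell type markers, and in bulk tissue fewer cells of a type and less RNA per cell cannot be told apart. Of 10 endothelial markers 1 was called, the tight-junction gene Cldn5 (1.44, SE 0.12, limma adjusted p = 9.77e-05), and the median of the 10 was -0.002. At an unadjusted p under 0.05 the count was 5 of 10, against 11.3% of all genes: Cldn5, Kdr (0.32) and Esam (0.25) were higher in FG-4497 hearts, and Tek (-0.33) and Tie1 (-0.19) lower. The summed level of the 10 markers, as log2, ran between 13.64 and 13.77 in FG-4497 hearts and between 13.63 and 13.71 in vehicle hearts. Their mean level was 10.12 to 10.22 in FG-4497 hearts and 10.02 to 10.09 in vehicle hearts. The groups thus overlapped by the sum but not by the mean. That mean includes Cldn5, which had the largest difference of the 10, and 5 of the 10 markers lay above 0. A mean without Cldn5 was not taken. The erythroid gene Alas2, the 1 of 4 erythroid markers measured, was higher by 0.96 (SE 0.15, limma adjusted p = 0.00557). None of 6 fibroblast markers and none of 6 smooth muscle and pericyte markers was called, with medians of -0.088 and 0.0, and 0 of 6 in each had an unadjusted p under 0.05. The part of these markers in the Id and Smad differences was not tested.

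The rest of the pathway was read from 8 lists of genes in the same heart fit. Of 56 genes tested 2 were called, both among the other reported targets, and 10 had an unadjusted p under 0.05 in limma, at most 1 in each list but the targets. Over all genes tested, 2.23% were called and 11.3% had an unadjusted p under 0.05. Of the ligands, 5 of 14 passed the filter and 0 were called, and Bmp6, a ligand best known from iron regulation in liver, had the largest difference (0.37, SE 0.13, limma adjusted p = 0.236). Of the other receptors and co-receptors, 8 of 9 were tested and 0 called, and the type I receptor Bmpr1a stood widest at 0.32 (SE 0.11, adjusted p = 0.202). All 6 transducing Smads were tested and 0 called, and Smad3, a transducer of the TGF-beta side, was widest at 0.36 (SE 0.10, adjusted p = 0.0994). The BMP-regulated Smads 1, 5 and 9 were thus not among the called genes while the inhibitory pair was.

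Of the extracellular antagonists, 9 of 15 were tested and 0 called, and Bambi, a decoy receptor, was widest at -0.26 (SE 0.09, limma adjusted p = 0.213). Of the 7 intracellular brakes 0 were called, and Ppp1r15a, a phosphatase subunit that Smad7 recruits to the receptor, was widest at 0.58 (SE 0.13, adjusted p = 0.0549). Its FG-4497 hearts read 7.95, 7.89 and 7.90, against 7.37, 7.63 and 7.01 in the vehicle hearts. These groups did not overlap. E proteins and other helix-loop-helix partners of the Id proteins gave 5 tested of 8 and 0 called, with Tal1 widest at 0.14 (SE 0.10, adjusted p = 0.73). Of the TGF-beta genes 6 of 7 were tested and 0 called, with Ccn2 widest at -0.26 (SE 0.10, adjusted p = 0.345).

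Among other reported BMP targets, 10 of 14 were tested, 1 was called higher and 1 lower. Hey1, a transcription factor of the Notch and BMP responses, read 8.75, 9.05 and 9.13 in the FG-4497 hearts, against 8.19, 8.30 and 8.45 in the vehicle hearts. Gata2, an endothelial and blood transcription factor, read 8.01, 8.0 and 8.26 in the FG-4497 hearts, against 8.47, 8.58 and 8.56 in the vehicle hearts. Neither gene overlapped between the groups. Hey1 rose by 0.66 (SE 0.11, limma adjusted p = 0.0106) and Gata2 fell by 0.45 (SE 0.09, adjusted p = 0.0294). Like the Id genes, reported targets of the pathway thus held members on either side, and the medians of the 8 lists lay between -0.049 and 0.073.

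**Figure D2:**
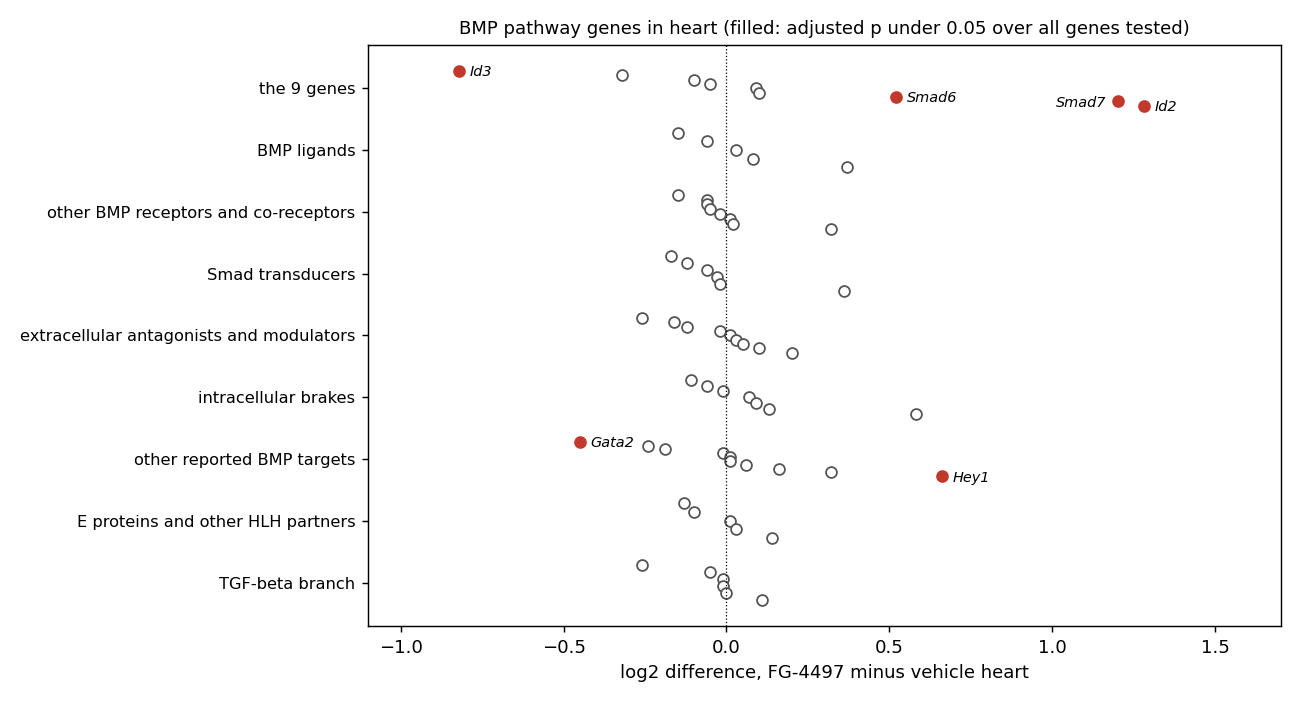
Difference between FG-4497 and vehicle hearts on the log2 scale (horizontal axis) for each tested gene of the 9 and of the 8 pathway lists (rows). Each point is 1 gene, offset up or down for legibility only, and filled points with names have a limma adjusted p under 0.05. The 6 filled points are Id3 and Gata2 to the left of 0 and Hey1, Smad6, Smad7 and Id2 to the right.

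The second question was whether the same genes differed between KO and WT skeletal muscle. Egln1 itself was lower in KO but not called in either muscle, so the extent of its loss is not known here. In soleus 0 of the 9 genes were called, against 0.185% of 11863 genes tested, and at an unadjusted p under 0.05 the count was 1 of 9, against 7.59% of all genes. With 9 genes, a count of 1 is near that share. The gene was Id1. It read 8.27, 8.14 and 8.78 in the KO soleus arrays, against 9.07, 8.86 and 8.92 in the WT soleus arrays. All KO arrays lay below all WT arrays, but KO replicate 3 sat well above the other KO arrays and just under the lowest WT array. The difference was -0.55 (SE 0.13, 1.46-fold lower, interval -0.84 to -0.25, unadjusted p = 0.00147), and limma's adjusted p over all genes was 0.174. Without KO replicate 3 the difference was -0.74 and the adjusted p 0.00507. With all arrays weighted by their estimated quality it was -0.64 with an adjusted p of 0.0322. The weights apply to every array, and what changed the call under them was not tested. The 2 calls came among 16 alternatives run for Id1 in soleus, and under the other 14 it was not called. Over all 16 the difference ran from -0.74 to -0.43, and the limma adjusted p reached 0.571.

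Id1 was also the 1 gene of the 9 whose soleus groups did not overlap, against 12.8% of all genes tested. The other 8 genes differed by between -0.12 and 0.09. Id2 read 8.66, 8.72 and 8.80 in the KO soleus arrays, against 8.61, 8.80 and 8.49 in the WT soleus arrays. Id3 read 7.72, 7.56 and 8.28 in the KO soleus arrays, against 7.79, 8.17 and 7.97 in the WT soleus arrays. Smad7 read 7.94, 7.61 and 8.37 in the KO soleus arrays, against 8.03, 8.06 and 7.92 in the WT soleus arrays. In both Id3 and Smad7, KO replicate 3 was above every WT array and KO replicate 2 was below every WT array, so the groups overlapped widely. The Smad7 difference in soleus was -0.03 (SE 0.15, interval -0.35 to 0.29), and hearts and muscles were not tested against each other in their responses.

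In quadriceps 0 of the 9 genes were called as well, against 0.801% of all genes tested, and 1 of 9 had an unadjusted p under 0.05, against 12.2% of all genes. That gene was Id2, which read 8.08, 8.51 and 8.47 in the KO quadriceps, against 8.10, 7.90 and 8.08 in the WT quadriceps. KO replicates 2 and 3 lay above every WT array and replicate 1 lay among them. The difference was 0.33 (SE 0.11, interval 0.09 to 0.57, unadjusted p = 0.0103, limma adjusted p = 0.222). Id1 read 8.26, 7.99 and 8.18 in the KO quadriceps, against 8.39, 8.24 and 8.40 in the WT quadriceps. KO replicate 1 lay just above WT replicate 2 and the groups overlapped, with a difference of -0.20 (SE 0.13, adjusted p = 0.619).

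The groups did not overlap for 2 of the 9 genes in quadriceps, against 17.2% of all genes tested. These were Id3, with a difference of 0.18 (adjusted p = 0.691), and Id4, with a difference of -0.08 (adjusted p = 0.591), with standard errors of 0.15 and 0.05. Id3 read 7.52, 7.52 and 7.63 in the KO quadriceps, against 7.50, 7.35 and 7.26 in the WT quadriceps. Smad6, Smad7 and the 3 receptor genes differed by between -0.13 and 0.02. None of these 5 genes was separated between genotypes.

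The knockout effect itself was compared between the muscles. It differed by -0.35 (SE 0.17, interval -0.73 to 0.02) for Id1 and by -0.31 (SE 0.19) for Id3, in each case lower in soleus than in quadriceps. Neither passed the test (limma adjusted p = 0.764 and 0.838), and 0 of the 9 genes were called against 0.00843% of all genes tested, with 0 of 9 at an unadjusted p under 0.05, against 6.64%. The 2 muscles were therefore not shown to differ in how Id1 stood in KO against WT.

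**Figure D3:**
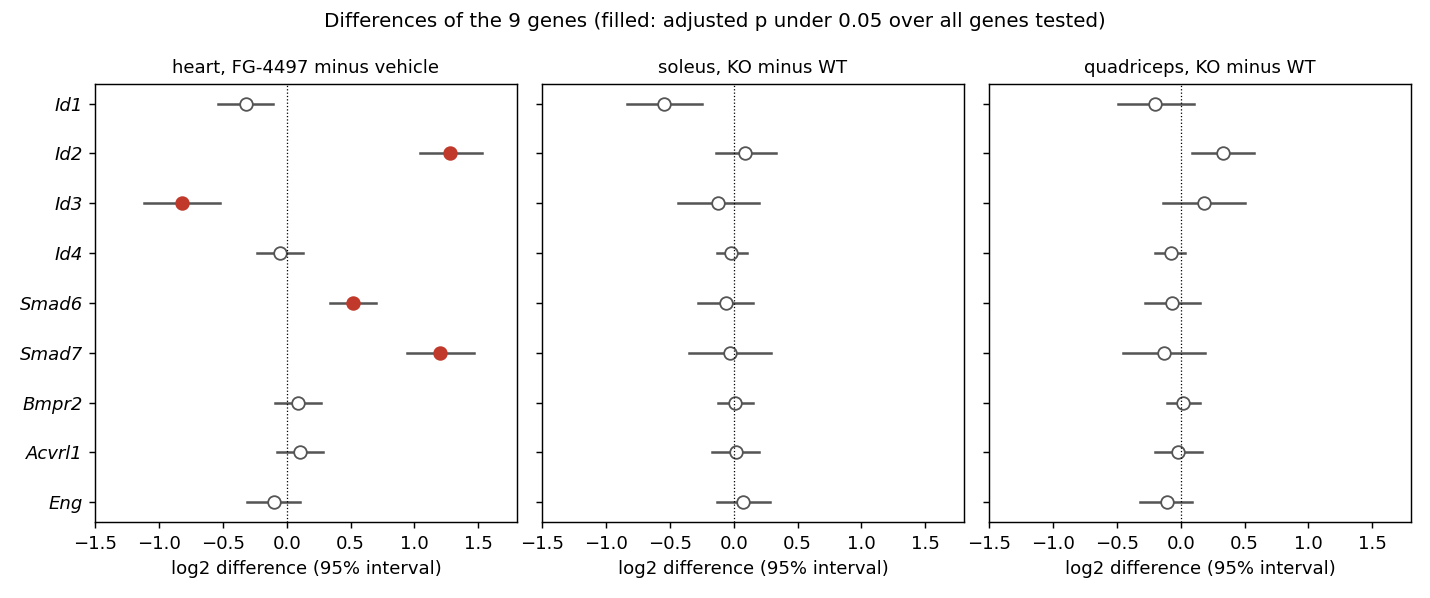
Difference of each of the 9 genes on the log2 scale, with 95% intervals from limma, in hearts (FG-4497 minus vehicle), soleus and quadriceps (KO minus WT), 3 arrays against 3 in each. Filled points have an adjusted p under 0.05 over all genes tested, which is the case for Id2, Id3, Smad6 and Smad7 in hearts and for 0 genes in the muscles.

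The pathway lists had 0 of 62 tested genes called by limma in either muscle, and at an unadjusted p under 0.05 there were 9 in soleus and 12 in quadriceps. Over all genes tested, 0.185% in soleus and 0.801% in quadriceps were called, and 7.59% and 12.2% had an unadjusted p under 0.05. In soleus the widest members were the ligand Bmp4 at 0.42 (SE 0.10, limma adjusted p = 0.131), the target Hes1 at 0.41 (adjusted p = 0.174) and Bambi at 0.26 (SE 0.05, adjusted p = 0.0787). The others were Tgfb3 at -0.26, Smad3 at -0.20, Tgfbr3 and Myod1 at 0.18 each and Ppp1r15a at -0.16. In quadriceps they were Myf5, a myogenic partner of E proteins, at 0.34 (adjusted p = 0.216), Ppp1r15a at -0.29, Smad3 at -0.27 (adjusted p = 0.12), Bmp5 at 0.25 and the co-receptor Tgfbr3 at 0.25 (adjusted p = 0.35). The type I receptor Acvr1, named after its value was seen, stood nearly as wide the other way at -0.25 (adjusted p = 0.294). Ccn2 followed at -0.23, Fstl1 at 0.21 and Tmem100 at 0.20. Endothelial markers stood at a mean of 9.18 to 9.31 in KO soleus and 9.02 to 9.29 in WT soleus, with 0 of 10 called in either muscle and 3 in soleus and 1 in quadriceps at an unadjusted p under 0.05. The mean of 4 fast-fibre genes was 13.13 to 13.18 in KO soleus and 12.24 to 13.36 in WT soleus. The 3 adipocyte markers measured were higher in KO by 0.32 to 0.44 in soleus and 0.18 to 0.38 in quadriceps, none called. Of 6 smooth muscle and pericyte markers, 1 in soleus and 2 in quadriceps had an unadjusted p under 0.05. Their mean was 8.74 to 8.92 in KO quadriceps and 8.64 to 8.77 in WT quadriceps. Of 4 satellite cell markers the counts were 1 and 2, and neither list had a called gene. Over all marker lists they were 5 of 45 in soleus and 6 of 45 in quadriceps. The mean of 6 fibroblast genes was 9.61 to 10.66 in KO soleus and 10.16 to 10.39 in WT soleus, with 0 called in either muscle. KO replicate 3 was the lowest KO soleus array in each of them, with Col1a1 at 9.44 against 10.80 and 11.12. The part of these markers in the Id1 difference, or in the values of KO replicate 3, was not tested.

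Levels were then compared over the tissues. WT soleus and WT quadriceps differed in 5 of the 9 genes, close to the share of 50.1% over all genes tested. Id1, Id2 and Id3 were higher in WT soleus than in WT quadriceps by nearly equal amounts, 0.60, 0.61 and 0.61 (limma adjusted p = 0.00114, 0.00021 and 0.00208). Eng was also higher in WT soleus, by 0.46 (adjusted p = 0.000554), and Bmpr2 was lower by 0.23 (adjusted p = 0.00413). Smad7, Smad6, Acvrl1 and Id4 were not called. The mean of the endothelial markers, 9.02 to 9.29 in WT soleus and 8.48 to 8.61 in WT quadriceps, moved the same way, and its part was not tested.

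Vehicle hearts and WT muscles came from separate experiments, so tissue and experiment cannot be told apart. Between vehicle heart and WT soleus 7 of the 9 genes were called, all higher in heart, against 60.4% of all genes called in either direction and 30.3% called higher. They were led by Eng (1.11) and Id1 (0.86). Between vehicle heart and WT quadriceps 6 of 9 were called, all higher in heart, against 67.3% of all genes called in either direction and 32.8% called higher. Eng stood 2.97-fold, Id1 2.76-fold, Id3 2.66-fold and Id2 2.4-fold above WT quadriceps (limma adjusted p between 8.81e-11 and 2.83e-07). Smad7 did not pass in either comparison, at 0.06 against WT soleus and 0.29 against WT quadriceps. The endothelial marker mean was likewise higher, 10.02 to 10.09 in vehicle hearts.

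The order of the 6 groups differed from gene to gene. For Id1 it ran from vehicle hearts (9.81) through FG-4497 hearts (9.48) and WT soleus (8.95) to KO soleus (8.40), each apart from the next, and KO soleus then overlapped WT quadriceps (8.34), which overlapped KO quadriceps (8.15). For Id2, FG-4497 hearts (10.57) and vehicle hearts (9.29) stood apart on top, and each of the 4 muscle groups overlapped its neighbour. For Id3, vehicle hearts (8.78) stood apart on top, and FG-4497 hearts (7.96) took a place among WT soleus (7.98) and KO soleus (7.86), with which they overlapped. For Smad7, FG-4497 hearts (9.26) stood apart from all others, while vehicle hearts (8.06) overlapped WT soleus (8.01). Id4 overlapped between every neighbouring pair of groups, from 6.75 to 6.93.

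Variation within groups was measured as the deviation of each array from its group mean over 18 arrays. Over the 36 pairs of the 9 genes, r ran from -0.33 (Smad6 with Eng) to 0.77 with a median of 0.17, and 7 pairs lay below 0. The 2 genes of a pair are read on the same arrays, and the r values are a description. The 4 pairs with the highest r joined Id1, Id3 and Smad7 with each other, and Acvrl1 with Eng. Id1 with Smad7 had r = 0.77, Id3 with Smad7 had r = 0.72 and Id1 with Id3 had r = 0.70, while Id2 stood at -0.02 with Id1 and 0.10 with Id3. Soleus KO replicate 3 was high in all 3 of Id1, Id3 and Smad7. Without that array, left out after its values were seen, the same 3 pairs had r = 0.54, 0.51 and 0.39. The receptor genes Acvrl1 and Eng had r = 0.73 with and without it.

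**Figure D4:**
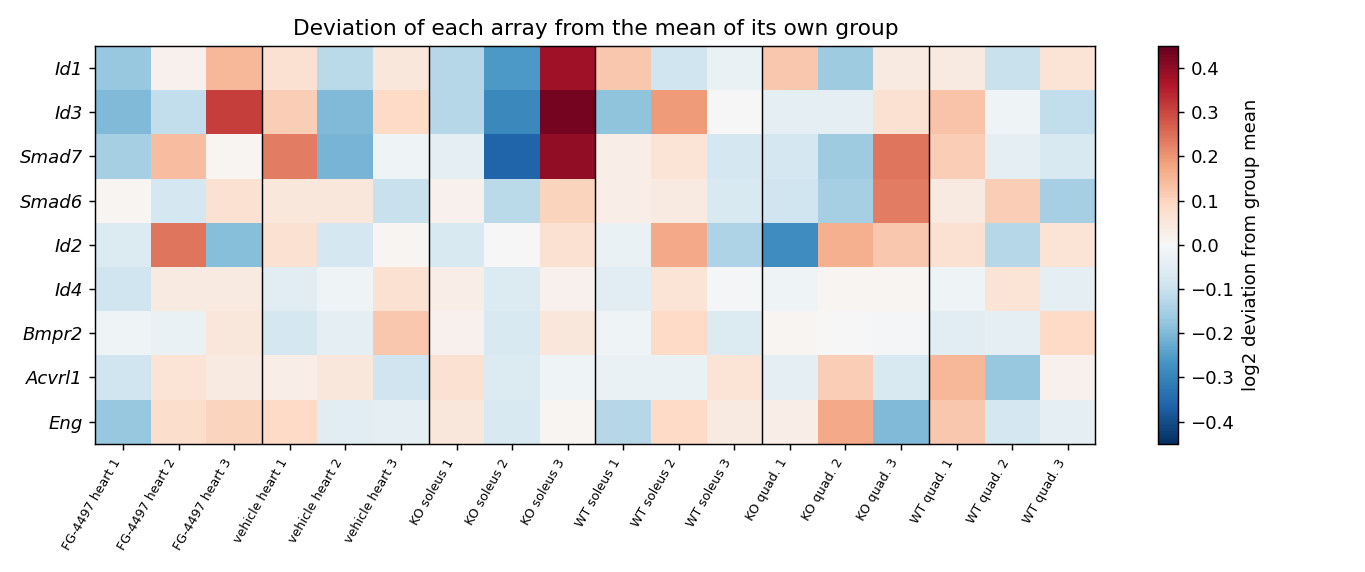
Deviation of each array from the mean of its own group, on the log2 scale, for the 9 genes (rows) in the 18 arrays (columns, groups parted by lines). Red is above and blue below the group mean. Id1, Id3 and Smad7 are high together in soleus KO replicate 3 and low together in soleus KO replicate 2.

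The genes whose level followed each Id gene most closely over the 18 arrays were found by Pearson's r among all genes tested. They were Map3k1 (0.984), Ero1a (0.983) and Spry4 (0.981) for Id2, and Maml3 (0.934), Gata2 (0.914) and Efna1 (0.907) for Id3. For Id1 they were Miga2 (0.968), Mical3 (0.966) and Guk1 (0.955), and for Id4, with its narrow range, Orai1 (0.863), Top3a (0.835) and Nosip (0.825). The arrays span 3 tissues, so these values take in differences between tissues and are a description only.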

How the data were processed

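RNA from 12 muscle and 6 heart samples was read on whole-transcript arrays. The values deposited by the authors are on a log2 scale and were made with RMA, per the submitters' processing notes. For RMA no version is given in the sources used here, nor which arrays were processed together. RMA equalises the distribution of all arrays, so a shift common to most genes is not seen. The labels call the samples of a group biological replicates.

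The platform annotation gave 1 gene for 21789 of 35556 probe sets, several for 1621 and none for 12146, and 21698 symbols were updated by gene identifier. A gene was represented by its brightest probe set, and a gene was tested where its mean reached percentile 40 of the probe sets naming 1 gene (6.64 in heart, 6.56 in muscle, 6.61 over all 18 arrays). Tests used limma 3.58.1 in R 4.3.3 with Benjamini-Hochberg adjustment over all genes tested (11826 in heart, 11863 in muscle, 11843 over all arrays), and a call at an adjusted p under 0.05. The fit was tested on simulated data for hearts and for KO against WT soleus, without an animal block. The fit with that block was not tested in this way. Muscle fits held the animal as a random block (consensus correlation 0.179, or 0.211 over all arrays). The number in the sample descriptions is read as the animal, which the labels do not state. Deviations of the 6 same-animal pairs correlated at r from 0.00389 to 0.387. With 3 arrays against 3, an exact permutation test cannot go below p = 0.1. The number of arrays limits precision.

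The 9 genes and the lists were chosen with earlier results of these data known. Genes named are the 9, Egln1, and from each pathway list the called genes or else the one with the largest difference, in heart and in each muscle. The 3 genes most like each Id gene over 18 arrays are also named. Cell type markers are named beyond this rule, after their values were seen. Alternatives changed the filter, the normalization, the probe set rule, the variance prior, array weights, the block, the arrays in the fit and each replicate in turn.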

Additional observations from a re-analysis of the deposited data

How the results depend on the processing

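The 9 genes in 7 comparisons gave 63 results, and 1027 values were computed under alternatives. Of these, 999 kept their side of the threshold with no reversal counted, 14 lost a call, 13 gained one and 1 was a reversal. For 53 of the 63 results, every alternative run kept the side of the threshold with no reversal counted. Each of the 9 genes had 1 probe set, so the alternative probe set rule could not change their levels. It acted only through the other genes in the fit, and it is included in these counts. A change of sign in a difference that was not called and was smaller than its standard error was not counted as a reversal. Smad7 in soleus, for example, ran from -0.21 to 0.14. In hearts Id2 (1.16 to 1.38), Smad7 (1.10 to 1.32) and Smad6 (0.47 to 0.56) were called under all 14 alternatives. The difference of Id3 ran from -0.98 to -0.72 and lost its call once, without FG-4497 replicate 2 (adjusted p = 0.0543). Id1 ran from -0.40 to -0.24 and was called under none of the 14. The count of the 9 genes called in soleus was 1 with estimated array weights and ranged from 0 to 1 when each replicate was left out in turn, the gene being Id1 in each case. The reversal was Acvrl1 between WT soleus and WT quadriceps, at -0.01 without quadriceps WT replicate 2, within a range of -0.01 to 0.16 over replicates left out. Between vehicle heart and WT soleus, Smad6 lost its call under 8 alternatives and Bmpr2 under 5. The causes were not tested.

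With the replicate block of the title numbers, 4 of the 9 genes were called in hearts, 0 in soleus and 0 in quadriceps, among 215, 18 and 68 genes in all. These numbers share no stated animal, and their pairs correlated at r from -0.307 to 0.164. Over all genes the calls ran from 147 (no filter) to 373 (trended and robust prior) in hearts, against 264. They ran from 6 (without soleus KO replicate 1) to 68 (array weights) in soleus, against 22. In quadriceps they ran from 26 (only the groups compared) to 227 (array weights), against 95. The difference between muscles had 0 to 3, against 1. With 3 arrays per group, the heart comparison could not exclude differences of the receptor genes that lie within the 95% intervals given for them.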
